A study of Homo sapiens with 6 samples.

Results

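C-type lectin receptors are proteins that carry a carbohydrate-recognition or related domain, and on myeloid cells many of them read sugars of fungi, bacteria, viruses or dying cells. The set described here holds 10 genes chosen by name, CLEC7A, CLEC4D, CLEC4E, CLEC5A, CD209, MRC1, CLEC10A, CLEC4A, CLEC12A and CLEC11A, out of 58381 gene identifiers in the deposited table, and all 10 were found by Ensembl identifier. DB2115 cultures received 5 µM of the compound for 20 h, and vehicle cultures received 0.001% DMSO for the same time. Both groups were MOLM13, an established human acute myeloid leukaemia cell line that carries an MLL-AF9 fusion gene and a duplicated stretch of FLT3, kept in RPMI with 10% fetal bovine serum, penicillin and streptomycin. All results therefore describe 1 cell line. The series title names PU.1, an ETS-family transcription factor of myeloid cells, so the contrast asks how this gene family responded to a compound studied for its action on that factor. The comparison rests on 2 libraries per group, called A and B here.

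The receptors of the set work in different ways. CLEC7A (dectin-1) binds beta-glucan and signals through its own tyrosine motif to the kinase SYK, while CLEC4D (MCL), CLEC4E (Mincle) and CLEC5A (MDL-1) need the adaptors encoded by FCER1G or TYROBP for the same purpose. CD209 (DC-SIGN), MRC1 (the mannose receptor, CD206) and CLEC10A (MGL, CD301) bind mannose-rich or galactose-type glycans and take up their ligands, and they mark dendritic cells and alternatively activated macrophages. CLEC4A (DCIR) and CLEC12A (MICL, CLL-1) carry inhibitory motifs, and CLEC12A is a surface antigen of acute myeloid leukaemia blasts. CLEC11A is not a receptor: it encodes a secreted growth factor of haematopoietic progenitors and bone.

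Total counts ran from 39647758 to 40067286 in the DB2115 libraries and from 36547900 to 42446253 in the vehicle libraries. Levels are given as CPM, the count scaled to the library's size after TMM adjustment. A count of 3 in 1 library, the limit below which a gene without counts cannot be seen, corresponds to between 0.0725 and 0.0854 CPM. The 8 markers of acute myeloid leukaemia fixed for the check were all detected, with summed levels of 1249 and 1356 CPM in DB2115 libraries and 1173 and 1216 CPM in vehicle libraries. In the test described below, 6 of them rose, 1 fell and 1 was not called. Among all genes tested 32.7% rose and 31.3% fell. Opposed changes lie within these sums. FLT3 averaged 139 CPM with DB2115 and 431 CPM in vehicle. MPO averaged 290 CPM with DB2115 and 52.6 CPM in vehicle. KIT, 1 of the rises, passed the filter on low counts through DB2115 alone. No label says whether the libraries of a group are separate cultures, and the p-values reflect the scatter among these 4 libraries alone, part or all of which may be technical. All values are shares of the RNA sequenced, and in bulk RNA a change in the number of expressing cells and a change in RNA per cell cannot be told apart.

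The 5 members with an entry in the RefSeq promoter table (GRCh38.p14) are CD209, CLEC5A, CLEC11A, CLEC4E and CLEC12A. The 250 bases before the start site are shown for CD209, the member that rose with the smallest adjusted p; CLEC5A, which had no vehicle counts; CLEC11A, the member that fell; and CLEC4E, without counts in any library. They lie at chr19:7747535-7747784 (minus strand), chr7:141946975-141947224 (minus), chr19:50723114-50723363 (plus) and chr12:8540906-8541155 (minus), and read 5′ to 3′ towards the gene. Capitals mark GAGGAA, the core that PU.1 prefers, and GGAAGT, a core shared by ETS factors, on either strand.
CD209: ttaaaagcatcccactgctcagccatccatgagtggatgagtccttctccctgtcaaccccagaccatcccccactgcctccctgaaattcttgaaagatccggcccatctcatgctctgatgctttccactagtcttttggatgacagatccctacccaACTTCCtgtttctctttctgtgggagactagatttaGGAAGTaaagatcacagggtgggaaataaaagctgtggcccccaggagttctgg
CLEC5A: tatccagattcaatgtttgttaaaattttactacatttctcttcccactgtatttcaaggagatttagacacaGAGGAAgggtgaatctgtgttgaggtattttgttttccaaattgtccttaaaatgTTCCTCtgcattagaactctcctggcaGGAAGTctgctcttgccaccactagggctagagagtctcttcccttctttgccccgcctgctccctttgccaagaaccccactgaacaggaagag
CLEC11A: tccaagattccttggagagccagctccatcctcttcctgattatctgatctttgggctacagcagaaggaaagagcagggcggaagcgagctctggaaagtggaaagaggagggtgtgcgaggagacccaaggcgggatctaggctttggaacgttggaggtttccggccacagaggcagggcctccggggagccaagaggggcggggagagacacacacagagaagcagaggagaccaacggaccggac
CLEC4E: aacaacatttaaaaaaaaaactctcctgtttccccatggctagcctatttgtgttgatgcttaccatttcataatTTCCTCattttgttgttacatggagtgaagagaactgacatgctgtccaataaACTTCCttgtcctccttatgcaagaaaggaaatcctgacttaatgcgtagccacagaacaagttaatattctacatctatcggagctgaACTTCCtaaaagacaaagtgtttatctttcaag
CD209 held 2 matches to GGAAGT, CLEC5A had 2 to GAGGAA and 1 to GGAAGT, and CLEC4E had 1 to GAGGAA and 2 to GGAAGT. CLEC12A, not printed, held 1 match to GAGGAA, and CLEC11A had none of either. Of 35116 promoters of this length, 23.6% held GAGGAA, 19.5% held GGAAGT and 37.1% held at least 1 of them, and the 2 motifs can overlap. The motifs were chosen with the sequences in view, and a match is a stretch of letters, not a measured binding site.

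With DB2115, CD209, CLEC5A, CLEC7A and CLEC10A rose, CLEC11A fell, and CLEC12A did not pass the test. CLEC4A, CLEC4D, CLEC4E and MRC1 were at or next to 0 counts in every library. Of the 10 members, 6 passed the filter on low counts, and of these 4 rose and 1 fell at an adjusted p under 0.05 (edgeR's quasi-likelihood test, Benjamini-Hochberg adjustment over all genes tested). In the same comparison 32.7% of the 17219 genes tested rose and 31.3% fell, so that 64.1% were called in 1 direction or the other. Of all genes tested, 42% had both DB2115 libraries above both vehicle libraries and 39.4% had both below, and the 6 tested members were among them, 5 above and 1 below. Among the 4389 tested genes with a vehicle mean under 1 CPM, 39.9% rose and 5.06% fell. CLEC5A, CLEC7A and CLEC10A passed the filter through their DB2115 libraries alone and so had to be higher there, which makes the count over the set a description only.

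**Figure D1:**
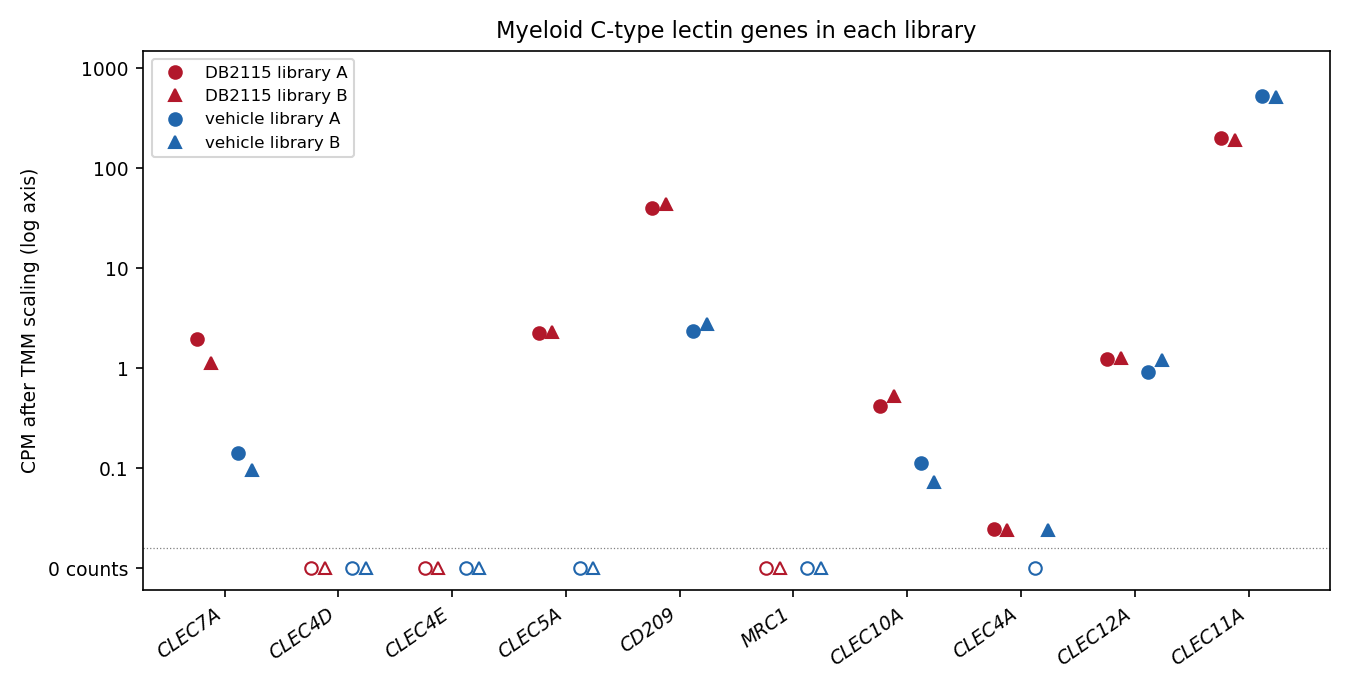
Level of each of the 10 genes in each library (CPM after TMM scaling, log axis; DB2115 in red to the left, vehicle in blue to the right; open symbols below the dotted line are libraries with 0 counts). CD209 stood at 40.4 and 44.3 CPM with DB2115 and at 2.36 and 2.74 CPM in vehicle, CLEC11A lay above all other members in every library, and CLEC4D, CLEC4E and MRC1 had no counts.

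Among the receptors that activate SYK, CLEC7A (chromosome 12, 10116777 to 10130258, minus strand) had 80 and 47 counts in the DB2115 libraries, against 5 and 4 counts in the vehicle libraries. These are 1.96 and 1.14 CPM with DB2115 and 0.142 and 0.0969 CPM in vehicle. The groups did not overlap, although the DB2115 libraries differed from each other. CLEC7A rose by 3.67 on the log2 scale (SE 0.51, edgeR adjusted p = 3.47e-05), and the ratio of counts was 13.1 with an exact 95% counting interval of 6.69 to 29.3. Counting intervals here cover counting error only.

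CLEC5A (chromosome 7, 141927357 to 141947007, minus strand), a receptor that pairs with the adaptor DAP12, had 93 and 95 counts with DB2115 and none in either vehicle library. The DB2115 libraries stood at 2.27 and 2.29 CPM and differed by little. Against a floor of 3 counts over the vehicle group, which is 0.0393 CPM, CLEC5A was at least 58.2-fold higher with DB2115 (edgeR adjusted p = 5.43e-07). Its fitted log2 fold change of 9.50 depends on edgeR's prior count and is no measured ratio. The whole gene lies inside MGAM on the opposite strand. MGAM, an intestinal maltase, had 14 counts with DB2115 and 1 count in vehicle.

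CLEC4E and CLEC4D, neighbours on chromosome 12 that both encode receptors for mycobacterial cord factor, had 0 counts in all 4 libraries. So did CLEC6A (dectin-2), the C-type lectin gene beside them. A count of 0 over a group allows up to 0.0364 CPM with DB2115 and 0.0393 CPM in vehicle, so no difference was detectable at this depth.

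Among the endocytic receptors, CD209 (chromosome 19, 7739994 to 7747564, minus strand) rose with the smallest adjusted p of the set. It had 1653 and 1832 counts with DB2115, 40.4 and 44.3 CPM, against 83 and 113 counts in vehicle, 2.36 and 2.74 CPM. The mean was 42.3 ± 2.73 CPM with DB2115 and 2.55 ± 0.264 CPM in vehicle (SD, n = 2 each), and the lower DB2115 library lay far above the higher vehicle library. This was a 16.5-fold rise (log2 value 4.05, SE 0.11, edgeR adjusted p = 1.63e-11). By size of rise CD209 ranked 586 among the 17219 genes tested. CD209 has a paralog in its tandem neighbour CLEC4M, and the sequences of the pair were not compared here. No source used here says how reads that fit both genes were divided, so the separate values of both are uncertain to that extent.

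CLEC10A (chromosome 17, 7074537 to 7080307, minus strand) had 17 and 22 counts with DB2115 and 4 and 3 counts in vehicle. Its level was 0.473 ± 0.082 CPM with DB2115 and 0.0933 ± 0.0291 CPM in vehicle (SD, n = 2 each), low with DB2115 and near the limit of detection in vehicle. The fitted rise was 2.33 on the log2 scale (SE 0.61, edgeR adjusted p = 0.00493), and the count ratio of 5.17 had an exact 95% counting interval of 2.29 to 13.7. The call was lost without DB2115 library B (edgeR adjusted p = 0.0584) and without vehicle library B (adjusted p = 0.0760). MRC1, on chromosome 10, the marker most used for alternatively activated macrophages, had 0 counts in all 4 libraries.

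Of the members with inhibitory motifs, CLEC12A (chromosome 12, 9951316 to 9995694, plus strand) had 51 and 52 counts with DB2115, against 32 and 50 counts in vehicle. These are 1.25 and 1.26 CPM with DB2115 and 0.911 and 1.21 CPM in vehicle. The vehicle libraries lay below both DB2115 libraries, and 1 of them lay close. The fitted difference was 0.23 on the log2 scale (SE 0.32, edgeR adjusted p = 0.549), and the count ratio of 1.17 had an exact 95% counting interval of 0.864 to 1.58. CLEC12A overlaps 2 genes on the opposite strand, and no source used here says whether counting used the strand. CLEC12A-AS1, the antisense transcript, had 142 and 121 counts with DB2115 and 15 and 16 counts in vehicle, and rose 7.82-fold (adjusted p = 1.96e-06, edgeR). CLEC1B (CLEC-2, a platelet receptor) had 18 counts with DB2115 and 3 in vehicle. CLEC4A had 1 count in each DB2115 library and 0 and 1 counts in the vehicle libraries, all at or under the floor, and was not tested. An unnamed transcript on the same strand, with 2 counts with DB2115 and 10 in vehicle, covers 14917 of its 14976 bases, and reads that both could claim may be in neither count.

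CLEC11A (chromosome 19, 50723329 to 50725718, plus strand), the secreted factor, was the member with the highest level and the only member called lower. It had 8212 and 7890 counts with DB2115 and 18649 and 21285 counts in vehicle. The level fell to 195.6 ± 7.14 CPM with DB2115, against 523 ± 10.9 CPM in vehicle (SD, n = 2 each), without overlap of the groups. It was 2.67-fold lower with DB2115 (log2 value -1.42, SE 0.06, edgeR adjusted p = 5.90e-10).

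**Figure D2:**
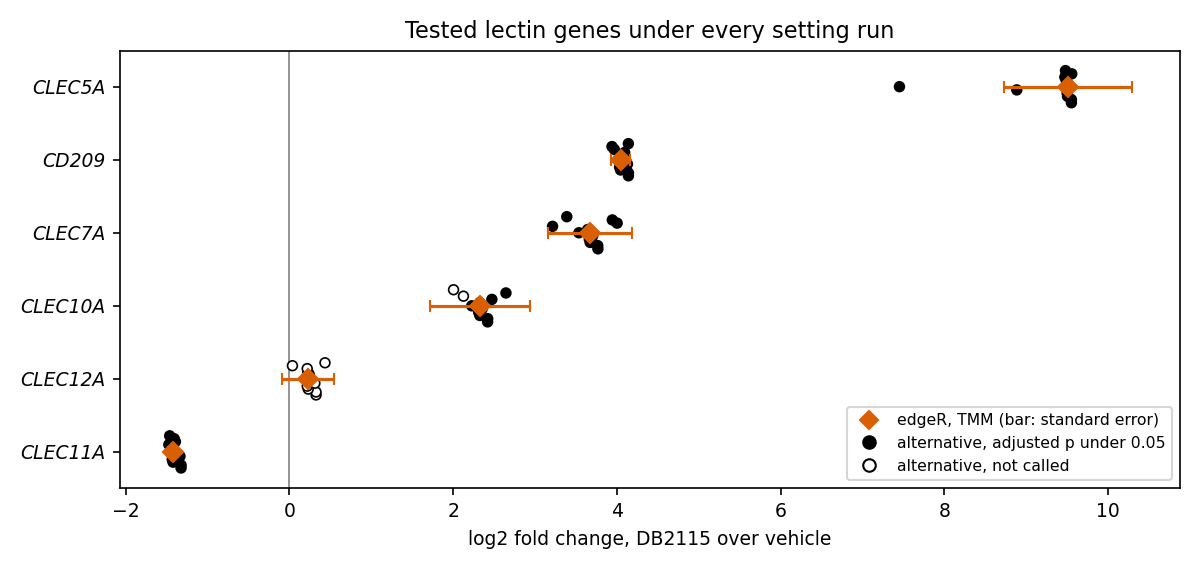
Log2 fold change of DB2115 over vehicle for the 6 tested members (orange diamonds: edgeR with TMM, bar: standard error; circles: other scalings, filters and tools and each library left out, filled where the adjusted p was under 0.05). CD209 stayed between 3.94 and 4.14 and CLEC11A between -1.47 and -1.32, whereas CLEC10A has 2 open circles and CLEC12A, between 0.04 and 0.43, has only open ones.

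On a scale per length (TPM, computed from the counts and GENCODE release 29 exon lengths), the members can be set against each other. With DB2115 the order of levels was CLEC11A (412 ± 2.99 TPM), CD209 (29.7 ± 2.78), CLEC5A (1.71 ± 0.0618), CLEC12A (1.19 ± 0.0415), CLEC7A (1.14 ± 0.395) and CLEC10A (0.595 ± 0.120 TPM; SD, n = 2 for each). The values of CLEC12A and CLEC7A overlapped between libraries. In vehicle the order was CLEC11A (1041 ± 5.13 TPM), CD209 (1.69 ± 0.202), CLEC12A (0.956 ± 0.206), CLEC10A (0.110 ± 0.0328) and CLEC7A (0.0833 ± 0.0211 TPM), and the last 2 overlapped. CLEC11A held 92.7% and 91.9% of the members' summed TPM with DB2115, and 99.8% and 99.7% in vehicle. By level CLEC11A ranked 241 and 245 among the tested genes with DB2115, and 104 in both vehicle libraries. CD209 ranked 4632 and 4257 with DB2115, and 12727 and 12550 in vehicle.

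Several members lie in tandem groups of C-type lectin genes, and the groups differed in what they showed. On chromosome 19, 4 lectin genes span 80.8 kb, FCER2, CLEC4G, CD209 and CLEC4M, and all 4 rose with DB2115, beside 32.7% of all genes tested. CLEC4G and CLEC4M passed the filter through DB2115 alone. CLEC4M (L-SIGN), a liver and lymph node paralog of CD209, had 353 and 361 counts with DB2115 and 3 and 1 counts in vehicle, a count ratio of 165.7 with an exact 95% counting interval of 64.4 to 609.9 (edgeR adjusted p = 9.43e-10). Its fitted log2 fold change of 7.29 was 8.31 without vehicle library A and 6.59 without vehicle library B. FCER2 (CD23, the low-affinity IgE receptor) had 15.4 and 15.8 CPM with DB2115 and 1.74 and 1.72 CPM in vehicle, a 9.02-fold rise (adjusted p = 6.58e-10, edgeR). CLEC4G (LSECtin) had 20 and 20 counts with DB2115 and 0 and 3 counts in vehicle, a ratio of 12.4 (3.94 to 62.6). Its log2 fold change of 3.54 was 2.68 without vehicle library A and 7.25 without vehicle library B.

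On chromosome 17, CLEC10A lies beside ASGR2 and ASGR1, which encode the subunits of the hepatocyte asialoglycoprotein receptor. The 3 genes, within 105 kb, all rose, beside 32.7% of all genes tested. CLEC10A passed the filter through DB2115 alone. ASGR2 had 72.9 and 68.4 CPM with DB2115 and 4.75 and 4.77 CPM in vehicle, a 14.8-fold rise (adjusted p = 4.16e-12, edgeR). ASGR1 had 3.74 and 4.13 CPM with DB2115 and 0.541 and 1.04 CPM in vehicle, a 4.88-fold rise (adjusted p = 1.45e-05, edgeR). ASGR2 thus stood far above CLEC10A in both groups.

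The members on chromosome 12 fall into separate stretches. CLEC4D and CLEC4E lie with CLEC6A in a stretch of 85.0 kb that gave 0 counts in every library. CLEC12A and CLEC7A lie in the natural killer gene complex, where 3 of the 16 listed lectin genes within 300 kb of either rose, 1 was not called and 12 were too low to test. The 3 that rose were CLEC12B, which lies 14.9 kb from CLEC12A, and CLEC1A and OLR1, which lie 5.15 and 28.0 kb to either side of CLEC7A. All 3 passed the filter through DB2115 alone and could be called only as rises, and among all tested genes with a vehicle mean under 1 CPM 39.9% rose. CLEC1A, an endothelial and myeloid receptor for fungal melanin, had 62 and 44 counts with DB2115 and 4 and 2 counts in vehicle, a ratio of 16.4 (exact 95% counting interval 7.29 to 45.7, edgeR adjusted p = 3.74e-05). Its log2 fold change of 3.98 was 4.64 without vehicle library A.

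OLR1 (LOX-1), a receptor for oxidised low-density lipoprotein, had 58 and 37 counts with DB2115 and 6 and 0 counts in vehicle, a ratio of 14.7 (6.51 to 41.1). Its log2 fold change of 3.81 (edgeR adjusted p = 0.000508) was 8.57 without vehicle library A and 2.71 without vehicle library B, and the call was lost in DESeq2 (adjusted p = 0.0730). CLEC12B, an inhibitory receptor, had 22 and 16 counts with DB2115 and 2 and 8 counts in vehicle (log2 fold change 1.81, adjusted p = 0.0231, edgeR). That call was lost without DB2115 library A (1.55, adjusted p = 0.151), without vehicle library A (1.23, adjusted p = 0.201) and in DESeq2 (adjusted p = 0.0929), and the value was 2.93 without vehicle library B. CLEC9A, a receptor of cross-presenting dendritic cells, had 9 and 14 counts with DB2115 and none in vehicle, at least 7.12-fold higher, but it did not pass the filter. CLEC2D, the ligand of the natural killer receptor KLRB1, had 4.84 and 4.44 CPM with DB2115 and 3.70 and 4.26 CPM in vehicle and was not called (adjusted p = 0.285, edgeR). CD69, CLEC2A, CLEC2B, KLRD1, KLRK1 and KLRC2 had at most 8 counts over a group, and KLRF1, KLRF2, KLRC3 and KLRC4 had none.

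**Figure D3:**
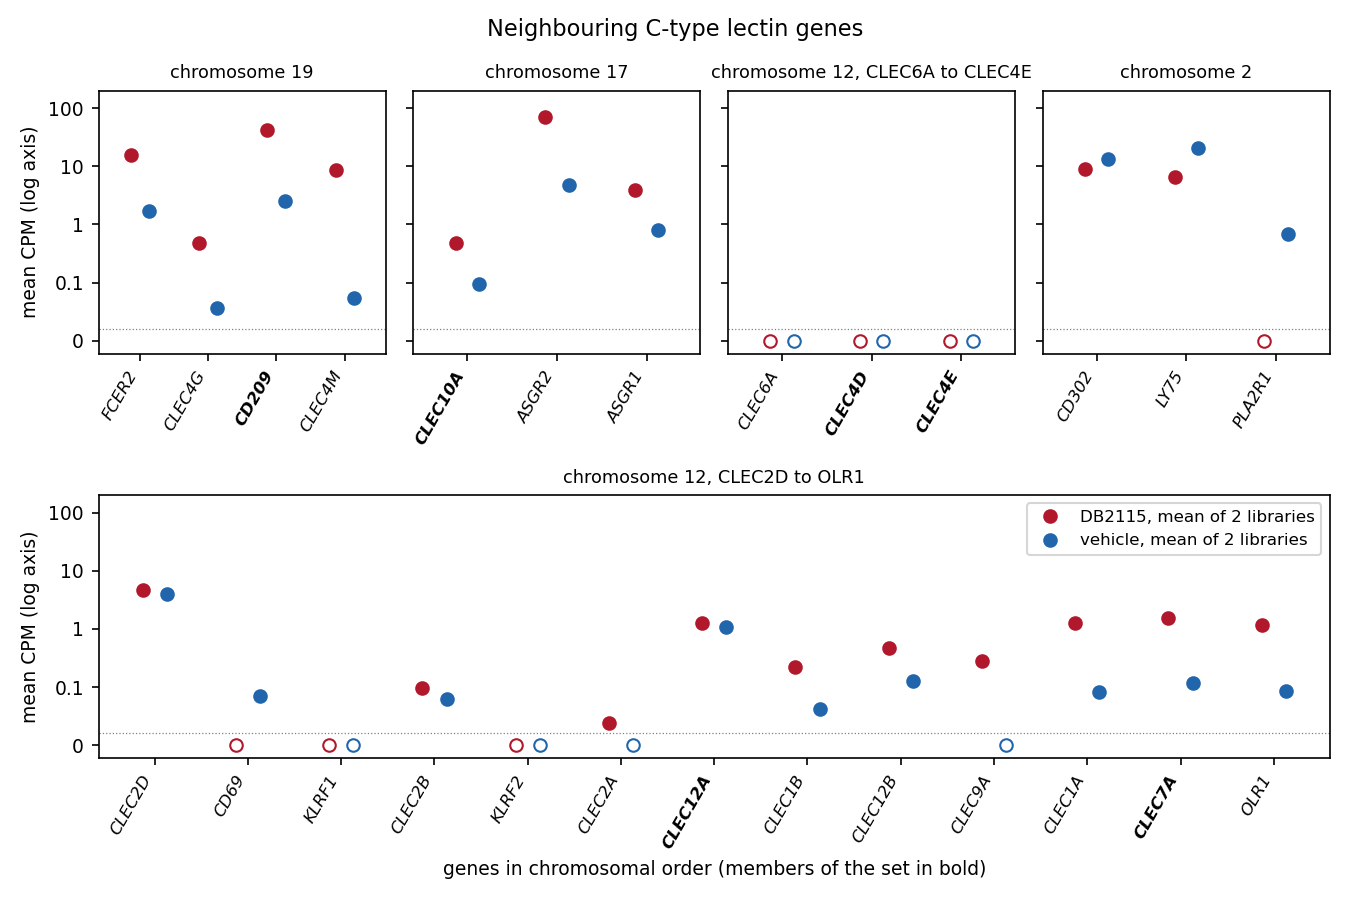
Mean level of C-type lectin genes in chromosomal order in the groups around CD209, CLEC10A, CLEC4E and CLEC7A and in the chromosome 2 group of LY75 (CPM, log axis; DB2115 in red to the left, vehicle in blue to the right, each the mean of 2 libraries; open symbols are 0 counts; members in bold). All 4 genes on chromosome 19 and all 3 on chromosome 17 lay higher with DB2115, CLEC6A, CLEC4D and CLEC4E had no counts, and the 3 genes on chromosome 2 lay lower.

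The tandem groups on chromosomes 17, 19 and 2, and MRC2, were singled out after their values were seen. On chromosome 2, CD302, LY75 (DEC-205, an endocytic receptor of dendritic cells) and PLA2R1 (the phospholipase A2 receptor), the last 2 of them relatives of MRC1, all fell. Among all genes tested 31.3% fell. LY75 had 6.57 and 6.59 CPM with DB2115 and 20.7 and 20.1 CPM in vehicle, 3.10-fold lower (adjusted p = 1.66e-08, edgeR). CD302 fell 1.54-fold, and PLA2R1 had 0 counts with DB2115 and 26 and 25 counts in vehicle, at least 18.3-fold lower. The gene LY75-CD302, on the same strand, covers 101356 bases of LY75 and 26405 bases of CD302. It had 1 count with DB2115 and 1 in vehicle, and reads that it shares with LY75 or CD302 may be in neither count. PLA2R1 passed the filter through its vehicle libraries alone and could be called only as a fall. MRC2 (Endo180), the remaining relative of MRC1 with a mannose-receptor layout, had 208 ± 1.95 CPM with DB2115 and 182 ± 10.5 CPM in vehicle (SD, n = 2 each), with a log2 fold change of 0.20 (adjusted p = 0.0129, edgeR). That call was lost without vehicle library A (0.13, adjusted p = 0.228) and without vehicle library B (0.23, adjusted p = 0.0511).

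Over the whole list of 74 other genes with a C-type lectin domain, 21 passed the filter, of which 16 rose, 3 fell and 2 were not called. Among all genes tested 32.7% rose and 31.3% fell, and among those with a vehicle mean under 1 CPM 39.9% rose. The median log2 fold change of the 21 was 2.29, beside 0.03 over all genes tested. The remaining 53 did not pass the filter, 25 of them with no count in any library. Of the 16 rises, 6 (CD248, CLEC12B, CLEC1A, CLEC4G, CLEC4M and OLR1) passed the filter through DB2115 alone and could be called only as rises. CD72, with 16 and 9 counts in vehicle, would not have passed through its vehicle libraries alone. PLA2R1, 1 of the 3 falls, passed through vehicle alone and could be called only as a fall. The count and the median are therefore descriptions. Apart from those above, the list included VCAN (versican), a matrix proteoglycan of monocytes, with 18.9 and 25.2 CPM with DB2115 and 0.996 and 1.33 CPM in vehicle, an 18.7-fold rise (adjusted p = 8.16e-10, edgeR).

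**Figure D4:**
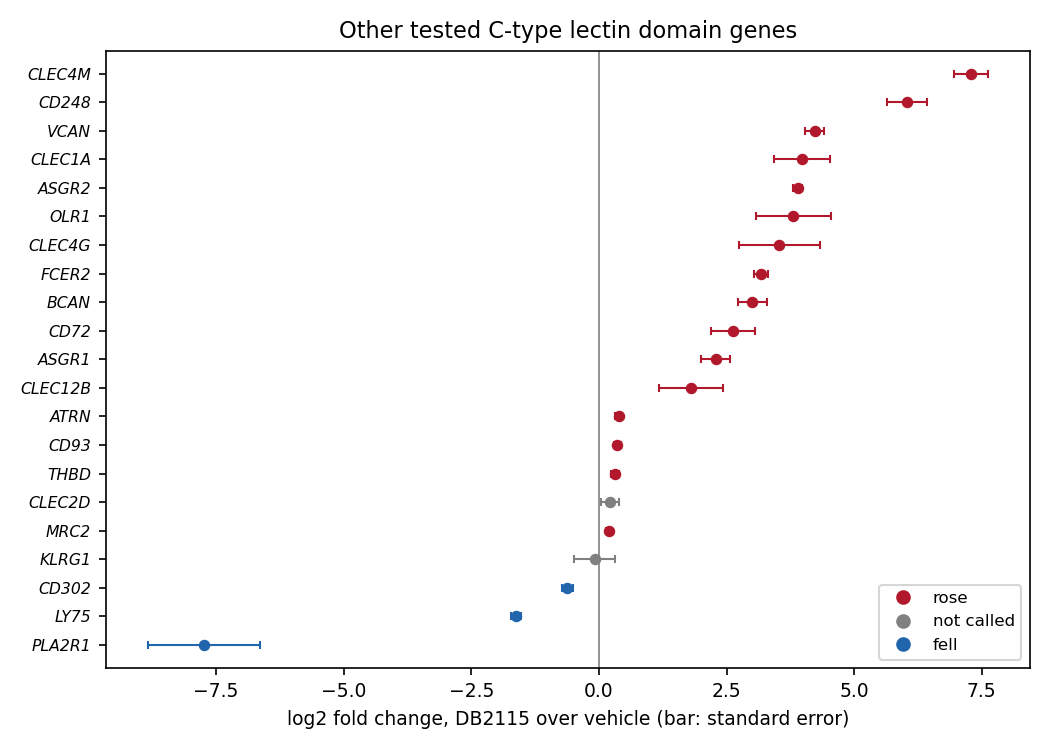
Log2 fold change of DB2115 over vehicle for the 21 tested genes with a C-type lectin domain outside the set (point: edgeR estimate; bar: standard error; red rose, blue fell, grey not called). CLEC4M at 7.29 and PLA2R1 at -7.74, a gene without DB2115 counts, mark the ends, and 16 genes lie on the side of higher levels as called rises.

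The partners that the activating receptors need were present in both groups. FCER1G, the Fc receptor gamma chain that carries Mincle and MCL, had 33.7 and 31.7 CPM with DB2115 and 4.21 and 3.90 CPM in vehicle, an 8.07-fold rise (adjusted p = 8.63e-11, edgeR). TYROBP (DAP12), the partner of CLEC5A, had 79.7 and 64.0 CPM with DB2115 and 11.7 and 10.8 CPM in vehicle, a 6.40-fold rise (adjusted p = 3.28e-10). HCST (DAP10), an adaptor that can act with DAP12, rose 2.19-fold. On the TPM scale FCER1G stood at 105 ± 1.32 with DB2115 and 12.3 ± 0.478 in vehicle, while CLEC4D and CLEC4E, the members it serves, had no counts.

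SYK and CARD9 moved less than these adaptors. SYK, the kinase recruited by these receptors, had 252 and 261 CPM with DB2115 and 203 and 202 CPM in vehicle, a rise of 0.34 on the log2 scale (SE 0.06, edgeR adjusted p = 0.000169). CARD9, the adaptor that links SYK to NF-kB, had 59.6 ± 5.32 CPM with DB2115 and 61.1 ± 1.99 CPM in vehicle (SD, n = 2 each) and was not called (log2 value -0.04, SE 0.07, edgeR adjusted p = 0.690), and its sign turned in 4 of 12 alternative fits. Of the 50 listed signalling genes, all of which were tested, 25 rose, 11 fell and 14 were not called, 72% called against 64.1% of all genes tested. Their median log2 fold change was 0.20, and 6 of them rose at least 2-fold while none fell that far. MALT1, 1 of these 6, rose by 1.19 on the log2 scale (edgeR adjusted p = 1.56e-08). BCL10 rose by 0.45 (edgeR adjusted p = 0.0039). Both genes were named after their values were seen. Besides the adaptors, the rises with the smallest adjusted p were those of SRC, a tyrosine kinase (2.60), and NFATC2, a calcium-regulated factor (1.33). Among the falls these were NLRP3, an inflammasome sensor (-0.95), the NF-kB subunit NFKB1 (-0.87), TRAF2 (-0.86) and the PI3-kinase subunit PIK3CB (-0.60).

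**Figure D5:**
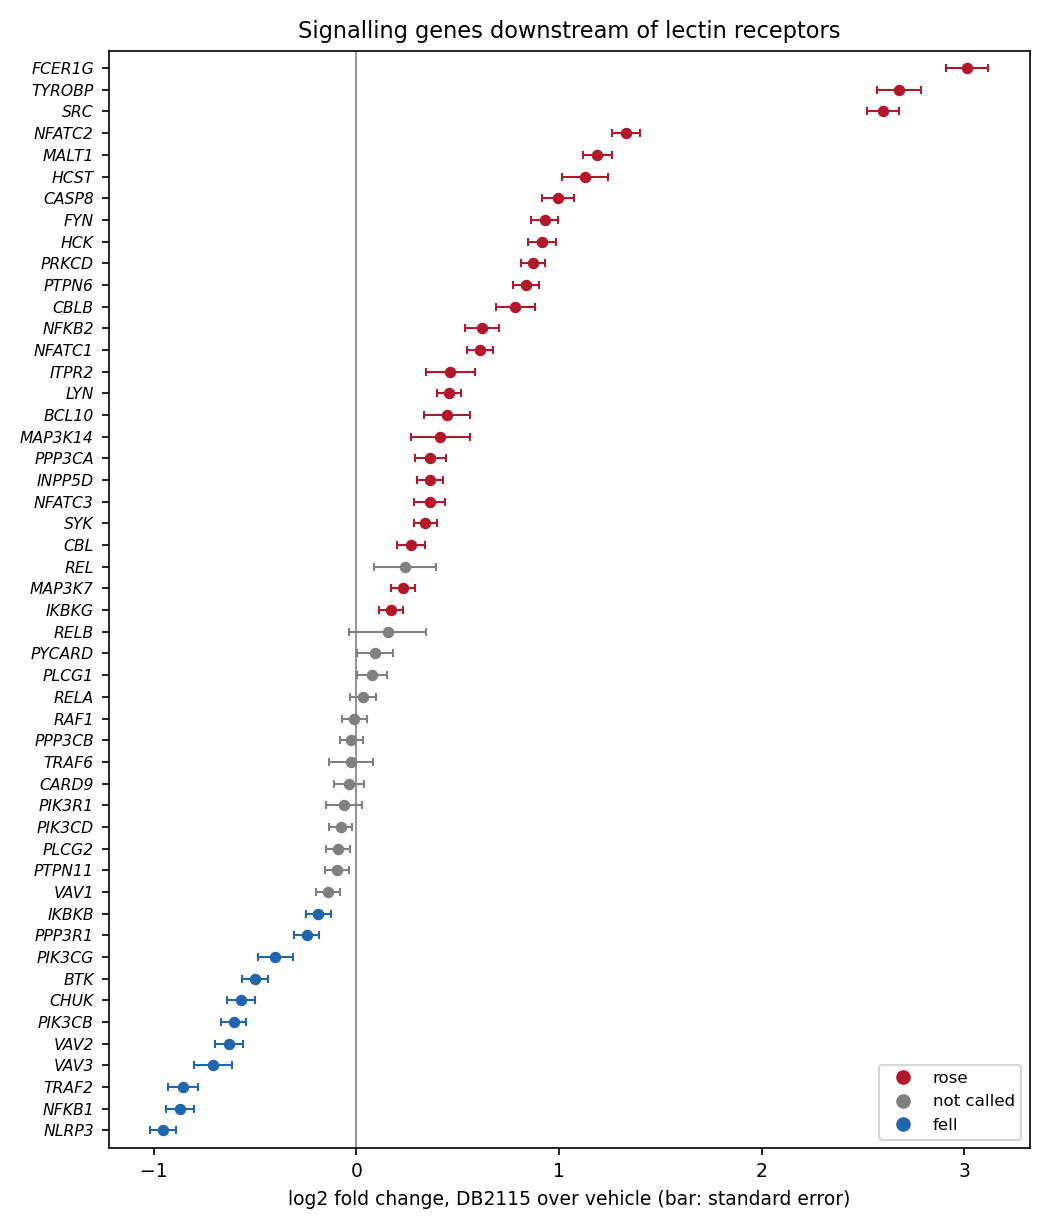
Log2 fold change of DB2115 over vehicle for 50 genes of lectin receptor signalling (point: edgeR estimate; bar: standard error; red rose, blue fell, grey not called). FCER1G at 3.01, TYROBP at 2.68 and SRC at 2.60 stand apart from the rest, and SYK at 0.34 and CARD9 at -0.04 lie near 0.

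Among genes that these receptors are known to induce, TNF, IL1B, PTGS2 and IL23A rose and EGR1 and CXCL10 fell. Of 26 listed, 15 passed the filter, with 9 that rose, 2 that fell and 4 not called, beside 32.7% that rose and 31.3% that fell among all genes tested. Their median log2 fold change was 1.71, beside 0.03 over all genes tested. Of the 9 rises, 3 (CCL2, CCL22 and LTA, named after their values were seen) passed the filter through DB2115 alone. Those 3 could be called only as rises. Of the 2 falls, CXCL10 passed through vehicle alone and could be called only as a fall. The count and the median are therefore descriptions. The cytokine genes TNF (44.4 and 35.9 CPM with DB2115, 6.97 and 7.14 CPM in vehicle) and IL1B (6.99 and 7.49 CPM with DB2115, 0.939 and 0.702 CPM in vehicle) rose 5.69-fold for TNF and 8.86-fold for IL1B (edgeR adjusted p of 9.44e-10 for TNF and 3.93e-08 for IL1B). PTGS2, the inducible cyclooxygenase, had 491 and 608 counts with DB2115 and 48 and 62 counts in vehicle, a 9.26-fold rise, and IL23A, a subunit of interleukin 23, had a log2 fold change of 1.71. EGR1, an immediate early factor, had 1.03 and 0.942 CPM with DB2115 and 10.3 and 8.62 CPM in vehicle, 9.56-fold lower, and the chemokine gene CXCL10 had 0 counts with DB2115 and 17 and 26 counts in vehicle, at least 15.4-fold lower.

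Markers of other cell types moved beside these genes. The counts below stand beside 32.7% that rose and 31.3% that fell among all genes tested. The 10 monocyte and macrophage markers summed to 122 and 126 CPM with DB2115 and to 8.97 and 8.79 CPM in vehicle, with 5 that rose, 1 not called and 4 not tested, and C1QB at 0. The 9 dendritic cell markers summed to 74.0 and 73.3 CPM with DB2115 and to 55.4 and 52.2 CPM in vehicle, of which 3 rose, 1 fell, 1 was not called and 4 were not tested, and LAMP3 was at 0. Of 5 T-cell markers 2 rose (sums of 19.6 to 23.4 CPM with DB2115 and 4.19 to 4.38 CPM in vehicle), with CD2 at 0. Of 5 B-cell markers 2 rose and 1 fell (23.5 to 26.9 CPM with DB2115 and 51.7 to 52.9 CPM in vehicle). Of 5 stromal markers 2 rose (46.7 to 60.9 CPM with DB2115 and 5.69 to 12.9 CPM in vehicle). Of 5 natural killer markers 2 rose and 1 fell (176.7 to 177.6 CPM with DB2115 and 169.7 to 175.6 CPM in vehicle), with NCR1 at 0. CD14, VSIG4, CD1A, CD1C, CD3E and PDGFRB, among the markers that rose, passed the filter through DB2115 alone. The part of such markers in the values of the lectin genes was not tested.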

How the data were processed

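RNA sequencing of MOLM13 cells gave 1 table of whole-number counts of reads for each gene, deposited without normalization. FastQC, STAR, DESeq2 and build hg38 appear in the submitters' processing notes. No source used here names the counting tool, annotation or strand setting. Per the labels' protocols, 1.0 µg of total RNA went into each library. The titles list 3 libraries per group, but the third column of each group was within 1% of the sum of the other columns in 98.5% of genes with at least 200 counts, in each group, so these 2 pooled columns were left out and n = 2.

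Symbols and coordinates came from the identifiers and GENCODE release 29 (GRCh38), which matched 58261 of 58381. Counts were filtered with filterByExpr (minimum count 10, minimum total 15), scaled by TMM and compared with edgeR 4.0.16 in R 4.3.3 (glmQLFit, glmQLFTest, treatment as the only term) over all genes. Standard errors were computed from each fold change and F statistic, and are too small for large changes with few counts. The floor is 3 counts, per library or over a group as stated. Counting intervals are Clopper-Pearson at 95% (scipy 1.17.1). The same code was also tested on simulated counts with known changes.

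Members and lists were chosen with earlier results of these data known. All members were named, with the 4 smallest adjusted p per direction of each other list, the adaptors with SYK and CARD9, and the lectin genes near members on chromosome 12. Alternatives were other scalings and filters, DESeq2 1.42.0, limma-voom (limma 3.58.1), a block on the column letter and each library left out. The result of 1 marker list is not reported here.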

Additional observations from a re-analysis of the deposited data

How the results depend on the processing

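Every tested member kept its direction under every alternative that tested it, and calls changed for CLEC10A alone, lost without DB2115 library B and without vehicle library B. Requiring 1 CPM in 3 libraries left 3 members, of which 2 were called (CD209 rose, CLEC11A fell), 11 other lectin genes with 10 called and 7 output genes with 5 called. At least 2-fold was reached by 4650 called genes and by 6 signalling genes, and by all 5 called members. The number of called members was 4 to 5 with 1 library left out, that of all genes 8838 to 10709, of other lectin genes 18 to 19, of signalling genes 29 to 37 and of output genes 11 to 12, where the lone library is assumed to vary like the rest. The columns carry letters, not replicate numbers, and deviations of same-letter libraries had a correlation of 0.034 over genes. With that letter as a replicate block, 5 members and 11424 genes were called, against 11030 without it. Scaling by total counts moved the median of all genes to 0.12 on the log2 scale, against 0.03. At this depth no difference was detectable for CLEC4D, CLEC4E and MRC1, nor for CLEC4A, where the overlapping transcript may also limit the count.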

Other observations

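Genes other than lectins beside members were read after the lectin values were seen. Within 100 kb of CD209, 9 genes were tested, of which 8 rose and 1 fell, beside 32.7% that rose and 31.3% that fell among all genes tested. RETN, CLEC4G and CLEC4M passed the filter through DB2115 alone. The 9 included RETN, which encodes the secreted protein resistin, with 31.0 and 26.2 CPM with DB2115 and 0.171 and 0.0242 CPM in vehicle (7 vehicle counts in all; log2 fold change 8.24, 10.03 without vehicle library A and 7.34 without vehicle library B). MCEMP1, a mast cell and monocyte membrane protein, rose 6.20-fold, while TRAPPC5 fell by 0.52 on the log2 scale. Within the same distance of CLEC4A, which was at the floor, 8 genes were tested, of which 2 rose, 3 fell and 3 were not called. Among those that rose was C3AR1, the receptor for complement C3a, with 686 and 639 counts with DB2115 and 7 and 7 counts in vehicle. This was an 86.4-fold rise (adjusted p = 5.65e-11, edgeR). C3AR1 passed the filter through DB2115 alone and could be called only as a rise. Around CLEC11A, 8 genes were tested, of which 3 fell, 1 rose and 4 were not called. Among those that fell was SHANK1, a synaptic scaffold gene, 2.80-fold lower with DB2115. SNORD88A, another of them, passed the filter through its vehicle libraries alone and could be called only as a fall. No gene within 100 kb of CLEC5A, CLEC4D or CLEC4E passed the filter.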
